A study of Mus musculus with 6 samples.

Results

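RNA of mouse 2T3 cells was compared between static culture and a rotating wall vessel for 37 genes of the actin cytoskeleton and the contractile apparatus. The genes were the actins, the thin filament proteins that coat them, non-muscle myosin subunits, filament crosslinkers and membrane linkers, actin monomer binding and severing proteins, and the transcription factor SRF with the LIM proteins Fhl1 and Fhl2. Every probe set that the platform's probe table assigns to 1 of these genes was taken, control probe sets left out, which gave 82 of 45037 probe sets, for 37 of the 18193 genes with a symbol of their own. Of these, 70 passed a filter on dim signal, and they represent 36 of the 37 genes. Lmod1, which encodes the filament nucleator leiomodin, did not pass, and each other gene is represented below by its brightest tested probe set unless another is named.

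2T3 is a single mouse clone of pre-osteoblasts, taken from skull bone and kept dividing by a viral oncogene that both groups carry. The vessel is a fluid-filled chamber that turns about a horizontal axis and so keeps its contents in near-constant fall, a ground-based model of microgravity. Static and rotated cultures were both at passage 8 to 10 and lasted 3 days, with 3 samples and 1 Affymetrix array per sample in each group. No agent or further genetic change is named for either. Groups follow the sample titles, although for static 2 and static 3 another label field reads simulated microgravity. The titles of the other group name their condition by the letter R, taken here as rotated. Nothing tells whether replicates came from separate cultures, so the p-values cover only how these samples vary, possibly for technical reasons. In bulk RNA, fewer cells of a kind and less RNA per cell cannot be told apart.

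Actin monomers assemble into filaments that myosin II pulls on, and tropomyosins, calponins and crosslinkers decide how stable and how contractile those filaments are. Monomeric actin also holds the coactivator MRTF in the cytoplasm. When monomers are drawn into filaments, MRTF enters the nucleus and joins SRF on CArG boxes, DNA elements found before many genes of the cytoskeleton, so that filament assembly and the transcription of its parts are coupled. In osteoblasts this system sets cell shape and adhesion and takes part in the response to load.

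The CArG box was searched for in the 250 bases before the start of each gene, in RefSeq promoters of assembly GRCm38.p6. Because the reverse complement of a CArG box is again a CArG box, a single search covers both strands. Only exact matches were counted, so near-matches are left unmarked. Of the 37 genes 34 have an entry (Actb, Actg2 and Tagln have none). Of these 34 genes, 8 (23.5%) held at least 1 box, against 1.62% of the 27025 genes in the table. These were Actc1, Actg1, Cnn2, Fhl1, Fhl2, Myl6, Myl9 and Srf. The windows of 5 of them are shown, since Myl9, Cnn2 and Actc1 had some of the lowest differences, Actg1 is a cytoplasmic actin and Srf encodes the factor itself. Capitals mark each box, and each sequence is written 5′ to 3′ toward the start of its gene.
Myl9, chr2:156775214-156775463, plus strand: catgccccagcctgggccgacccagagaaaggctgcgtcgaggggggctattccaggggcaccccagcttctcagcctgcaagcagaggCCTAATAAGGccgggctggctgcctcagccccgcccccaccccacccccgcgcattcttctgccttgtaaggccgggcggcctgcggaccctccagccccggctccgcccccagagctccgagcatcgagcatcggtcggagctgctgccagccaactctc
Cnn2, chr10:79988350-79988599, plus strand: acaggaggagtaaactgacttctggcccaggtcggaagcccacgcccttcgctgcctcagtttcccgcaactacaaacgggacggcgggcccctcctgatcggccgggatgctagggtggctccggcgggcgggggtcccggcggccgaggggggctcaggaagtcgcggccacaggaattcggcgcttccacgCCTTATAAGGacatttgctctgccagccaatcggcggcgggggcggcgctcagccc
Actc1, chr2:114052876-114053125, minus strand: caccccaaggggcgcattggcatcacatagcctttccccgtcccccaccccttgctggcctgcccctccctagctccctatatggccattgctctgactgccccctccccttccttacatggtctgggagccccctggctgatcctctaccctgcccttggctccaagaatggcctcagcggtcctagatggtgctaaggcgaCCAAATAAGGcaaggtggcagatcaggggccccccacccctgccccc
Actg1, chr11:120348496-120348745, minus strand: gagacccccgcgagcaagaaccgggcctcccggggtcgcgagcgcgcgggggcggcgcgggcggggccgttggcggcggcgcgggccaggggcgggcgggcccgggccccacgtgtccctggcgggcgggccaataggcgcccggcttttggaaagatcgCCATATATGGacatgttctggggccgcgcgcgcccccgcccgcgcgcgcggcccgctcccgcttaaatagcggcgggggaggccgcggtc
Srf, chr17:46556163-46556412, minus strand: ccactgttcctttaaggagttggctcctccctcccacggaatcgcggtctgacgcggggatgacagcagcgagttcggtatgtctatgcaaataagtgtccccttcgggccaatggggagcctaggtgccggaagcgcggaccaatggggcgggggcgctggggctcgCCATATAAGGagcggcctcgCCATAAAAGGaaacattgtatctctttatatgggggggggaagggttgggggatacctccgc
Measured to its first base, the box lies 161 bases before the start in Myl9, 56 in Cnn2, 47 in Actc1 and 90 in Actg1. Srf holds a pair of boxes, at 82 and 62 bases. A match describes these letters only and is not evidence of binding.

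No gene of this set passed the test. In limma with Benjamini-Hochberg adjustment over all 27022 tested probe sets, the smallest adjusted p among the 70 was 0.572, and over all probe sets it was 0.299. The rotated samples stood lower for the myosin light chain gene Myl9, the profilin gene Pfn1, the calponin gene Cnn2 and the tropomyosin gene Tpm1. They stood higher for the alpha-actinin gene Actn1 and the ezrin gene Ezr. At an unadjusted p under 0.05, these were 4 genes lower and 2 higher of 36, or 11.1% and 5.56%. Over all 12554 genes tested, 3.74% were lower and 4.49% higher by that rule, and 0% passed after adjustment. In either direction it was 8.24% of genes, and 2227 of the probe sets, also 8.24%. Without static 2 no member gene was lower by that rule, and without rotated 2 there were 8. Of all probe sets, those fits called 7.62% and 7.15% in either direction. The median log2 difference of the 36 genes was -0.13, against 0.03 over all genes, and 21 of them lay below 0. That median was 0.12 when arrays were centred on their medians and 0.023 with array weights. It stayed below 0 when each sample was left out in turn, from -0.19 to -0.01, with 18 to 27 genes below 0. Its sign thus depends on the processing, and the set as a whole has no settled direction. With the replicate number as a block, 7 genes stood lower and 4 higher (19.4% and 11.1%, against 6.75% and 8.22% of all genes), and the smallest adjusted p was 0.170.

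**Figure D1:**
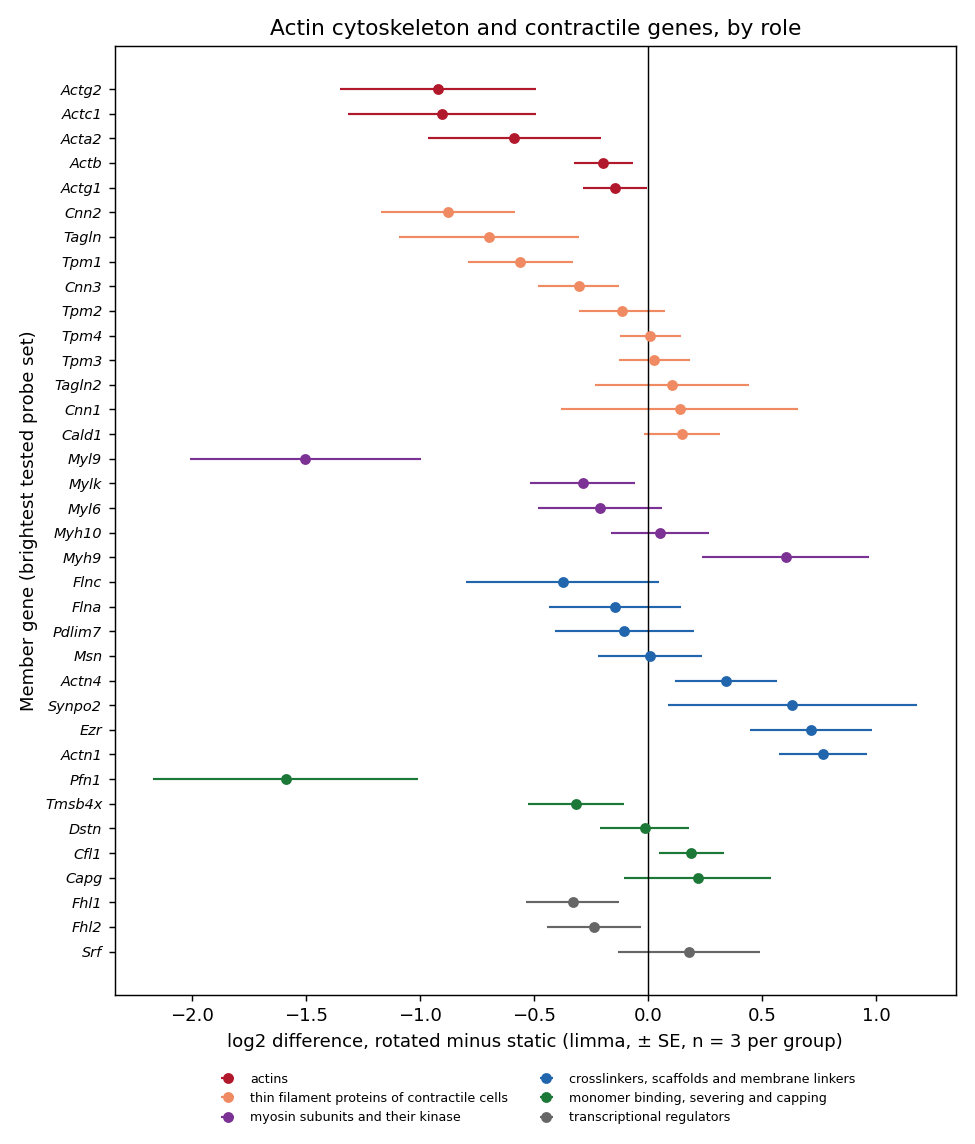
Log2 difference (rotated minus static, limma, ± SE, n = 3 per group) of the brightest tested probe set of each of 36 genes, coloured by role. All 5 actins lie below 0, the lowest values belong to Pfn1 (-1.59) and Myl9 (-1.50), and the highest to Actn1 (0.77).

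The spread between arrays was uneven. The deposited signal of each array has a mean of 500 after trimming, with medians from 70.0 to 130.1. The highest median was that of static 1, and the other 5 arrays reached at most 88.8. The 10th percentile of static 1 was 22.1, against 4.5 to 7.2 elsewhere. Correlated with each other array in turn, static 1 averaged 0.928 and rotated 1 averaged 0.934, against 0.9503 to 0.9533 for the rest. The 3′ over 5′ ratio of the actin control probe sets was 3.21 in rotated 1, against 1.29 to 1.57 on the other 5 arrays. For transferrin receptor, rotated 1 had a control ratio of 8.92, against 1.62 to 3.71 elsewhere. That ratio is of 217.7 to a dim 5′ signal of 24.4, under the array's median of 88.8, so it is imprecise. The Gapdh ratio of rotated 1 was 0.875, close to the 0.867 of static 1 and above the 0.748 to 0.792 of the others. Rotated 1 was the lowest of the 6 arrays for 18 of the 36 genes (50%), against 23.9% of all genes. Of osteoblast markers, Sp7 and Col1a1 had static means of 8.23 and 13.31 and differences of -0.84 ± 0.34 and -0.79 ± 0.34, each at an unadjusted p under 0.05, and their part in the results was not tested. Alpl and Ibsp, with static means of 6.56 and 6.64, lay near the filter's threshold of 5.96. Runx2, Bglap and Spp1 were not analysed here. Of 24 markers of smooth muscle, striated muscle, endothelial, macrophage and epithelial cells, 11 passed the filter and 1 had an unadjusted p under 0.05, the epithelial Epcam (-0.96 ± 0.40, log2 difference ± SE). Of the 5 smooth muscle markers 3 passed, Smtn, Hspb6 and Des, with static means of 8.91, 8.59 and 5.86. Of the 7 striated muscle markers 2 passed, Ckm and Mylpf, with static means of 6.90 and 6.47. The smooth muscle myosin gene Myh11 and the muscle regulators Myod1 and Myog were among those that did not pass.

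The control probe sets for actin lie along the transcript of cytoplasmic beta-actin, Actb, and give its signal at 3 positions. The 5′ probe set read 22129.2, 21460.5 and 22322.4 in static 1 to 3, and 10800.4, 20966.5 and 18618.8 in rotated 1 to 3, as deposited. The 3′ probe set read 30411.8, 27711.5 and 30011.9 in the static samples, and 34712.2, 32915.9 and 27524.0 in the rotated ones. Rotated 1 therefore had the lowest 5′ signal and the highest 3′ signal of the 6 arrays for the same transcript. The middle probe set was also lowest in rotated 1, at 14035.2 against 18603.7 to 22308.5 elsewhere. Wherever rotated 1 carries a difference below, its actin ratio of 3.21 and its Gapdh ratio of 0.875 stand beside it, and their part in the result was not tested. The positions of the members' own probe sets along their transcripts were not used here.

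**Figure D2:**
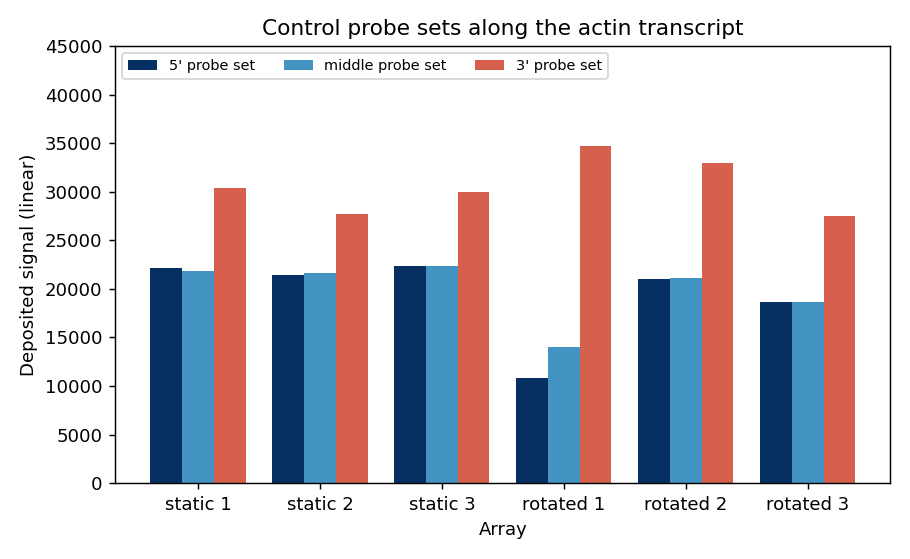
Deposited linear signal of the 5′, middle and 3′ control probe sets for the actin transcript on each of the 6 arrays. In rotated 1 the 5′ bar is at 10800.4 and the 3′ bar at 34712.2, while on the other arrays the 5′ bars lie between 18618.8 and 22322.4.

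The 5 actin genes all stood lower in the rotated samples, with a median log2 difference of -0.59, and none passed the test. Rotated 1 was the lowest array for all 5. Without rotated 1 all 5 were still below 0, with a median of -0.16. The muscle-type actins carried the larger differences, and the cytoplasmic ones differed by 0.20 or less. Actins are close paralogues and the probe sets of Acta2 and Actg1 carry the suffix that the manufacturer gives to probes shared by several transcripts, so their signals may not be fully separate.

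Acta2, alpha smooth muscle actin, marks myofibroblasts and is a classic SRF target. Its log2 level was 13.76, 14.53 and 13.68 in static 1 to 3 and 12.50, 14.07 and 13.64 in rotated 1 to 3. The groups overlap, and rotated 1 stands more than 1 log2 unit below every other sample. The difference was -0.59 ± 0.38 (SE, adjusted p 0.657 in limma), -0.13 without rotated 1, -0.32 without static 2 and -0.064 with array weights. The other probe sets of Acta2 did not pass the filter.

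Actg2, gamma smooth muscle (enteric) actin, read 10.15, 11.09 and 9.88 in the static samples and 8.59, 10.13 and 9.65 in the rotated samples. Rotated 2 lay inside the static range and the other rotated samples below it. The log2 difference was -0.92 ± 0.43 (adjusted p 0.609), -0.49 without rotated 1, -0.56 without static 2 and -0.30 with array weights.

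Actc1, cardiac alpha-actin, which holds a CArG box, read 6.84, 6.77 and 6.69 in static culture and 5.24, 6.02 and 6.32 in the vessel. Every rotated value lay below every static value. The log2 difference was -0.90 ± 0.41 (adjusted p 0.606), and -0.59 without rotated 1. Its rotated mean of 5.86 is under the dimness threshold of 5.96, so it passed the filter only through the static group, and no fold is given. The counts of actins and of CArG genes include it. Under the stricter filter, which drops Actc1, 4 of 4 actins (median -0.39) and 6 of 7 CArG genes lay below 0.

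Actb, the beta-actin of every non-muscle cell, read 14.80, 14.62 and 14.72 in the static samples and 14.44, 14.52 and 14.60 in the rotated samples. The groups do not overlap, yet they lie close together, and as deposited they do overlap (22992.6 to 28575.0 static, 22458.4 to 28045.1 rotated). The difference was -0.20 ± 0.13 (adjusted p 0.663 in limma). Actg1, cytoplasmic gamma-actin, read 14.64, 14.82 and 14.71 against 14.39, 14.64 and 14.70, a difference of -0.15 ± 0.14 (adjusted p 0.753). Both cytoplasmic actins turned positive with the values as deposited (0.018 and 0.074) and with median centring (0.15 and 0.21), so neither has a settled direction. The 3 muscle-type actins kept theirs in every alternative that tested them, several of which leave the difference unchanged. For Acta2 the difference came as near to 0 as -0.064, with array weights.

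**Figure D3:**
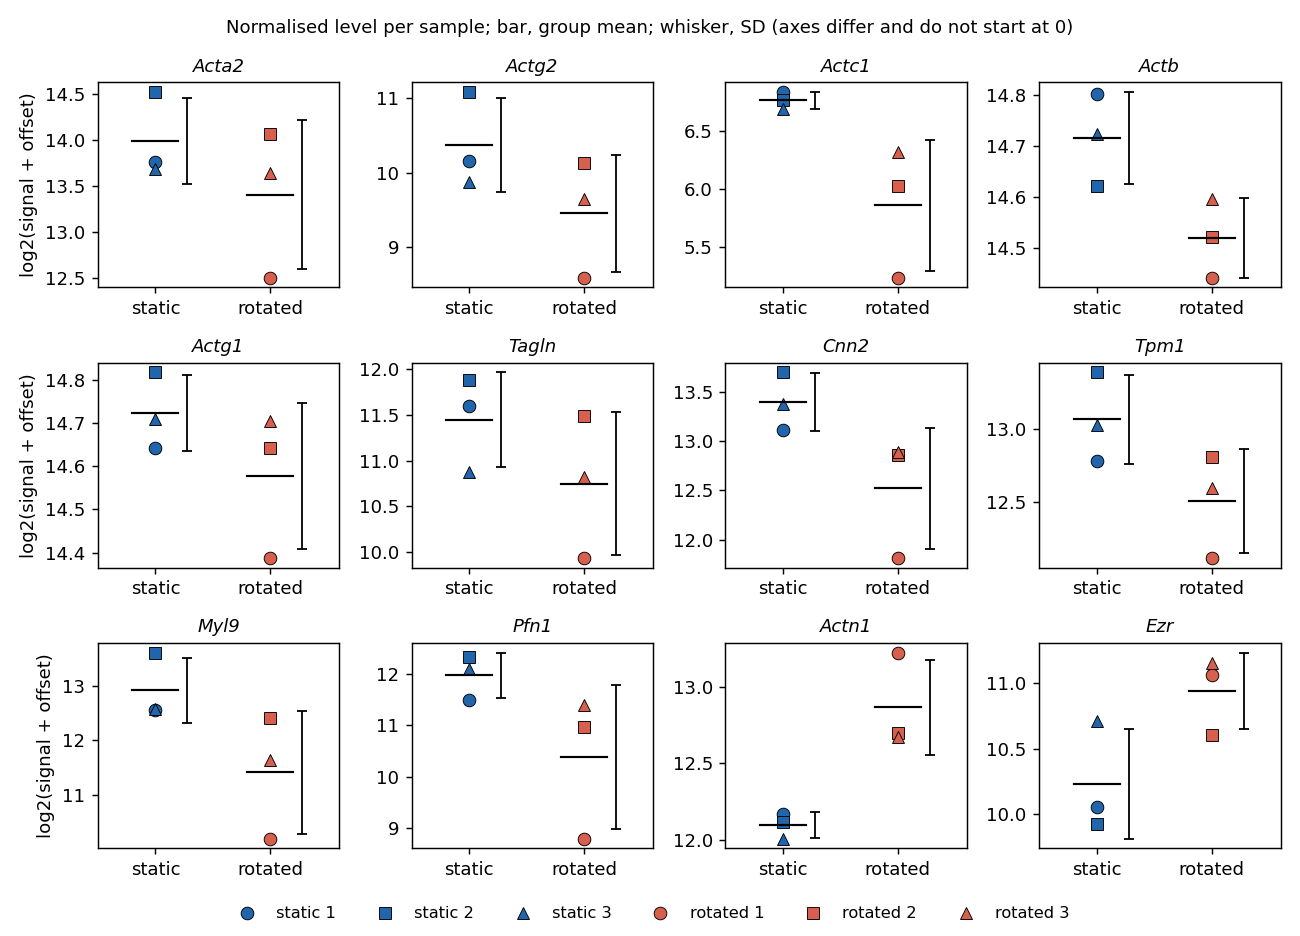
Normalised log2 level of 12 genes in each static and rotated sample, with the group mean (bar) and SD (whisker, n = 3); symbols give the replicate number and the axes differ between genes. Rotated 1 is the lowest point for the actins, Tagln, Cnn2, Tpm1, Myl9 and Pfn1, and static 2 the highest for Acta2, Actg2, Actg1, Tagln, Cnn2, Tpm1, Myl9 and Pfn1.

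Among the thin filament proteins, 5 of 10 tested genes stood lower and 5 higher, with a median log2 difference of -0.05 that was 0.13 with median centring. Without static 1, 9 of 10 stood lower (median -0.21), and without rotated 2, 8 of 10 did (median -0.19). None passed the test. Transgelin, calponins and caldesmon bind along the filament and modulate myosin, and tropomyosins stabilise it. The lower values belonged to Cnn2, Tagln, Tpm1, Cnn3 and Tpm2.

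Cnn2, the calponin of non-muscle cells, which holds a CArG box, read 13.12, 13.70 and 13.38 in static 1 to 3. In rotated 1 to 3 it read 11.81, 12.86 and 12.89. Every rotated sample lay below every static sample, and rotated 2 and rotated 3 were nearly equal. Cnn2 was 1.84-fold lower (log2 difference -0.88 ± 0.29, SE, adjusted p 0.593 in limma, and 0.191 with the replicate block). Without rotated 1 the difference was -0.52.

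Cnn1, basic calponin and a marker of differentiated smooth muscle, read 6.40, 8.35 and 6.85 in the static samples and 6.85, 7.91 and 7.25 in the rotated ones. All rotated values lay inside the static range (0.14 ± 0.52, adjusted p 0.949). Its sign changed with the values as deposited and without static 1, static 3 or rotated 2. Cnn3, acidic calponin, has 6 tested probe sets that ranged from -0.78 to 0.20. The lowest of them read 12.64, 13.21 and 13.14 against 11.54, 12.55 and 12.57, with no overlap, while the brightest stood at -0.30 ± 0.18. The brightest carries a suffix for probes that can match other transcripts, and the lowest does not.

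Tagln, transgelin or SM22-alpha, an early smooth muscle marker, read 11.59, 11.88 and 10.87 in static culture and 9.93, 11.49 and 10.82 in the vessel. The groups overlap. The log2 difference was -0.70 ± 0.39 (adjusted p 0.635), and -0.29 without rotated 1. With array weights it was 0.034. Its relative Tagln2 stood at 0.11 ± 0.34 and caldesmon, Cald1, at 0.15 ± 0.16.

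Tpm1, the tropomyosin gene of stress fibres and muscle, read 12.78, 13.39 and 13.03 in the static samples and 12.11, 12.81 and 12.60 in the rotated samples. Only rotated 2 reached into the static range. Tpm1 was 1.47-fold lower (-0.56 ± 0.23, adjusted p 0.605), and -0.36 without rotated 1. A second probe set of Tpm1, almost as bright, read 12.89, 13.39 and 12.79 against 10.79, 12.48 and 12.29. It had a difference of -1.17 ± 0.40 with no overlap between the groups, and rotated 1 was far below the others. A dimmer probe set stood at -0.09 ± 0.29. Of the other tropomyosins, Tpm2 stood at -0.12 ± 0.19, Tpm3 at 0.03 ± 0.16 and Tpm4 at 0.01 ± 0.14. The 4 tested probe sets of Tpm3 spanned -0.50 to 0.66.

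Among the 5 myosin subunit and kinase genes, Myl9 had the largest difference and the others were smaller or mixed. Myl9, a regulatory light chain of myosin II whose phosphorylation switches contraction on, holds a CArG box. It read 12.55, 13.61 and 12.58 in static 1 to 3 and 10.19, 12.41 and 11.64 in rotated 1 to 3. Every rotated sample lay below every static one, with rotated 2 just under static 1. As deposited, rotated 2 (5494.2) lay just above static 1 (5453.9). Myl9 was 2.83-fold lower (log2 difference -1.50 ± 0.51, SE, adjusted p 0.593 in limma). With the replicate block its adjusted p was 0.170, the smallest of the set, and the difference was -0.89 without rotated 1 and -0.80 with array weights.

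Mylk, the kinase of that light chain, stood at -0.29 ± 0.23 on its brightest probe set, with no overlap between groups, and at -0.29 ± 0.28 on another. Myl6, the essential light chain, which also holds a CArG box, stood at -0.21 ± 0.27. The 2 probe sets listed for Myl6 together with predicted genes, which are not members, stood at -0.30 ± 0.16 and -0.34 ± 0.18. Myh10, non-muscle myosin heavy chain IIB, stood at 0.05 ± 0.21.

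Myh9, non-muscle myosin heavy chain IIA, gave values that depend on the probe set. The brightest read 12.65, 11.98 and 11.81 in the static samples and 13.25, 13.14 and 11.87 in the rotated samples, a difference of 0.60 ± 0.37. The other 4 ranged from -0.56 to 0.04. The lowest of them read 9.42, 9.35 and 9.16 against 8.07, 9.05 and 9.11, with no overlap. Rotated 1 was the highest of 6 arrays on the first of these probe sets and the lowest on the second. The mean over the probe sets was -0.090.

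Of 8 genes for crosslinkers, scaffolds and membrane linkers, 5 stood above 0 and 3 below, with a median log2 difference of 0.17, and none passed the test. This count and median moved with the libraries used. With rotated 1 left out 0 lay below 0 and the median was 0.36, whereas 4 lay below 0 without static 1 (median 0.060), without rotated 3 (0.059) or without rotated 2 (0.13). The mean over probe sets also put 4 below 0 (median 0.098), and the stricter filter, which drops Synpo2, gave a median of 0.0077 over 7 genes. Alpha-actinins bundle antiparallel filaments in stress fibres and at adhesions, filamins join crossing filaments, and ezrin and moesin tie filaments to the plasma membrane.

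Actn1, alpha-actinin of non-muscle cells, read 12.17, 12.12 and 12.01 in static 1 to 3 and 13.22, 12.70 and 12.67 in rotated 1 to 3. The groups are apart, with a spread of 0.08 (SD) in static culture and 0.31 in the vessel. Actn1 was 1.70-fold higher (0.77 ± 0.19, adjusted p 0.572, and 0.183 with the replicate block), and 0.59 without rotated 1. A second probe set read 8.16, 9.32 and 9.27 against 9.94, 9.55 and 9.65, again with no overlap (0.80 ± 0.33). The third stood at 0.11 ± 0.36. Across all alternatives the difference of Actn1 stayed between 0.56 and 0.99.

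Ezr, ezrin, read 10.06, 9.92 and 10.71 in static culture and 11.06, 10.61 and 11.16 in the vessel. Only rotated 2 lay inside the static range, just below static 3. Ezr was 1.64-fold higher (0.71 ± 0.27, adjusted p 0.593), with 0.65 when rotated 1 was left out and 0.28 ± 0.24 with array weights, and its other probe set stood at 0.59 ± 0.54. Actn4, the second non-muscle alpha-actinin, read 11.02, 11.63 and 11.50 against 11.45, 11.88 and 11.84 (0.34 ± 0.23, adjusted p 0.662, and 0.16 without static 1). Moesin, Msn, close kin of ezrin, stood at 0.01 ± 0.23.

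Synpo2, a synaptopodin relative found at stress fibres, has 1 of 4 probe sets above the filter. That probe set passed only through the rotated group, with a mean of 6.39 against 5.76 in static culture, under the threshold of 5.96. It read 4.79, 6.15 and 6.32 in static culture and 6.74, 6.76 and 5.66 in the vessel (0.63 ± 0.55, adjusted p 0.726), with overlap. Without static 1 and rotated 1 its difference was -0.026. The filamins Flna and Flnc stood at -0.15 ± 0.29 and -0.37 ± 0.42, and Pdlim7, a PDZ and LIM scaffold on actin filaments, at -0.11 ± 0.30. A dimmer probe set of Pdlim7 read 9.04, 9.24 and 8.97 against 6.88, 8.41 and 8.87, with no overlap (-1.03 ± 0.46).

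Among the 5 monomer binding, severing and capping genes, Pfn1 stood apart. Profilin, its product, charges actin monomers with ATP and feeds them to growing filament ends. Pfn1 read 11.48, 12.34 and 12.10 in static 1 to 3 and 8.79, 10.97 and 11.40 in rotated 1 to 3. All rotated values lay below all static values, with rotated 3 just under static 1 and rotated 1 far below the others. As deposited, rotated 3 (2742.9) lay just above static 1 (2693.5). Pfn1 was 3.01-fold lower (log2 difference -1.59 ± 0.58, SE, adjusted p 0.593 in limma, and 0.216 with the replicate block). Without rotated 1 the difference was -0.79. It is the only probe set of Pfn1 among the members.

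Cfl1, cofilin, which severs old filaments, differed between its probe sets. The brightest read 13.96, 14.16 and 14.11 in static culture and 14.37, 14.30 and 14.13 in the vessel (0.19 ± 0.14, adjusted p 0.693). Its suffix marks probes that can match other transcripts. The other read 12.21, 12.74 and 13.00 against 10.56, 12.11 and 12.91, a difference of -0.79 ± 0.50. As with Myh9, rotated 1 was the highest array on the first probe set and the lowest on the second. Destrin, Dstn, a cofilin relative, stood at -0.02 ± 0.19, and thymosin beta-4, Tmsb4x, the main store of actin monomer, at -0.31 ± 0.21.

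Capg caps filament ends. Its brightest probe set read 10.76, 11.44 and 11.64 in static culture and 10.87, 11.67 and 11.95 in the vessel (0.22 ± 0.32, adjusted p 0.843). A dimmer probe set read 6.91, 6.87 and 6.30 against 8.11, 8.13 and 7.60, which was 2.38-fold higher with no overlap (1.25 ± 0.33, adjusted p 0.593). Its suffix also marks probes that can match other transcripts.

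Srf itself read 10.62, 10.27 and 9.81 in static 1 to 3 and 11.01, 10.14 and 10.10 in rotated 1 to 3. The groups overlap and rotated 1 was the highest array (0.18 ± 0.31, adjusted p 0.870). Its dimmer probe set read 7.99, 8.17 and 8.39 against 6.85, 7.87 and 8.85, where rotated 1 was the lowest array (-0.33 ± 0.46). The LIM proteins Fhl1 and Fhl2, which bind SRF partners and hold CArG boxes, stood at -0.33 ± 0.20 and -0.24 ± 0.21, and the groups of Fhl2 did not overlap. Of the 8 genes with a CArG box, 7 lay below 0, with a median log2 difference of -0.28, against 11 of 25 tested genes without a box (median 0.01) and 46.7% of all genes. With median centring the counts were 6 of 8 and 6 of 25. Without static 1 they were 7 of 8 and 17 of 25, without rotated 2 they were 7 of 8 and 15 of 25, and with the mean over probe sets 8 of 8 and 13 of 25. The genes without a box include Acta2, named above as an SRF target, and Actb, Actg2 and Tagln fall in neither group. The split therefore does not separate SRF targets from other genes. It was made with the members' values known, so it is a description only.

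**Figure D4:**
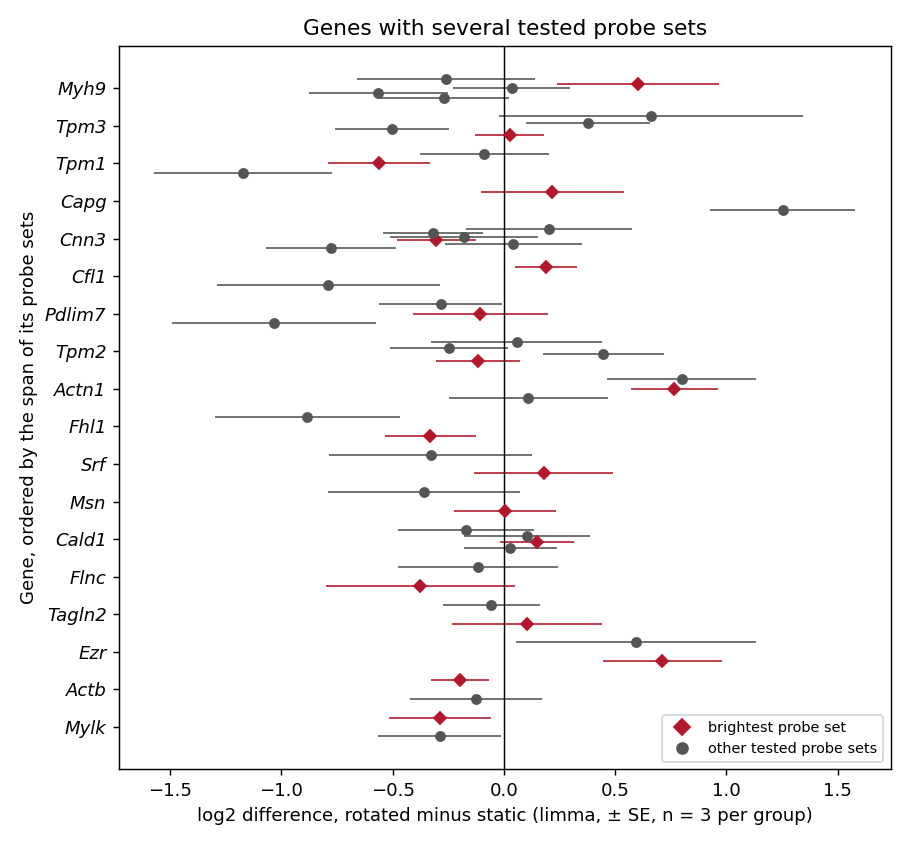
Log2 difference (rotated minus static, limma, ± SE, n = 3 per group) of every tested probe set of the 18 genes with several, ordered by the span within each gene. The span exceeds 1 for Myh9, Tpm3, Tpm1 and Capg, and for 9 of the 18 genes the probe sets lie on both sides of 0.

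Probe sets of a gene agreed in sign for 9 of the 18 genes that have several. Counted over all 70 tested probe sets, 7 stood lower and 4 higher at an unadjusted p under 0.05, 10% and 5.71%, against 3.9% and 4.34% of all probe sets. The samples did not overlap for 12 lower and 3 higher of the 70, 17.1% and 4.29%, against 7.27% and 7.83%. With the replicate block 13 stood lower and 6 higher, 18.6% and 8.57%, against 7.35% and 7.29%, and 0.0074% of all probe sets passed the adjusted threshold, none of them a member. Among the brightest probe sets of the 36 genes, the rotated and static samples did not overlap for 7 lower genes and 1 higher gene, 19.4% and 2.78%, against 7.11% and 8.3% of all genes. The lower genes were Actc1, Actb, Cnn2, Myl9, Mylk, Pfn1 and Fhl2, and the higher gene was Actn1. Of these, Actc1 passed the filter only through the static group, and as deposited the groups of Actb, Myl9 and Pfn1 overlap. The 12 probe sets that did not pass the filter belong to 9 genes.

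The members also varied together within the groups. Static 2 was the highest static sample for 23 of the 36 genes and rotated 2 the highest rotated sample for 19. Both held for 16 genes (44.4%), against 14.9% of all genes. These included 7 of the 10 thin filament genes, among them Tagln, Cnn1, Cald1 and Tpm1, and also Acta2, Actg2 and Myl9. For Cnn1 the samples numbered 2 read 8.35 and 7.91, against 6.40 to 7.25 in the other 4. The labels do not say what a replicate number stands for.

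**Figure D5:**
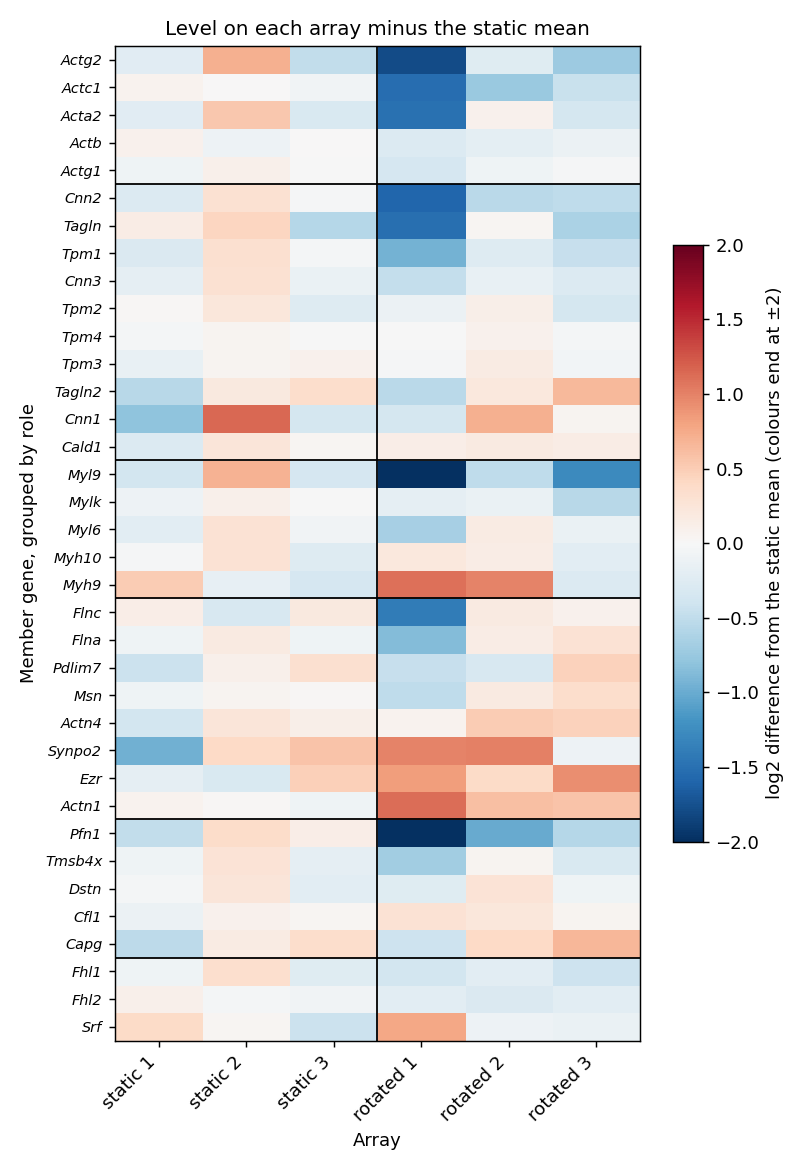
Log2 level of the brightest tested probe set of 36 genes on each array, minus the mean of the static samples, grouped by role from the actins (top) to the transcriptional regulators (bottom). Static 2 is the highest static sample for 23 genes, rotated 1 the lowest array for 18, and Actn1 and Ezr are above the static mean in all rotated samples; colours end at 2 log2 units, which Myl9 and Pfn1 exceed in rotated 1.

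Beyond the members, 50 of 60 other genes of the actin pathway were tested, and none passed. At an unadjusted p under 0.05, 5 stood lower and 0 higher (10% and 0%, against 3.74% and 4.49% of all genes), and 32 of 50 lay below 0, with a median log2 difference of -0.16. That median was 0.017 with median centring and -0.032 without rotated 1. Without rotated 1, and with no block, there were 2 lower and 1 higher, and 4.04% of all probe sets were called in either direction. With the replicate block and all samples 15 stood lower and 4 higher, 30% and 8%, against 6.75% and 8.22% of all genes.

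The smallest p of the 50 genes belongs to a gene not reported here. Mrtfa, the coactivator of SRF, stood at a log2 difference of -0.47 ± 0.23, with no overlap between groups. Ssh1, a cofilin phosphatase gene, stood at 0.35 ± 0.25, and Limk1, the kinase that inactivates cofilin, at 0.21 ± 0.36.

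Of 16 genes of filament nucleation and capping, 10 lay below 0. Tmod3, which caps slow-growing ends, stood at -0.68 ± 0.23 and the capping protein subunit gene Capza2 at -0.45 ± 0.19, both with no overlap. Arpc1a, of the branching complex, stood at -0.52 ± 0.31, and Arpc2, of the same complex, at 0.07 ± 0.14. Wasl, which activates that complex, stood at 0.43 ± 0.27 and the second cofilin gene Cfl2 at 0.08 ± 0.16. Of 17 crosslinking and other filament-binding genes, 11 lay below 0. Csrp2, a LIM protein of actin bundles, stood at -0.58 ± 0.23, Pdlim5 at -0.38 ± 0.18 and the light chain gene Myl12b at -0.42 ± 0.21, with no overlap for any of them. Cortactin, Cttn, stood at 0.48 ± 0.22, Pdlim1 at 0.36 ± 0.19 and anillin, Anln, at 0.30 ± 0.23. Adjusted p in limma ran from 0.572 to 0.989 over the 50 genes.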

How the data were processed

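RNA was measured on 1-colour Affymetrix arrays, 3 static and 3 rotated samples. The deposited table holds 1 linear intensity per probe set and array, and its trimmed mean (2% from each end) of 500 on every array shows that the authors scaled the arrays. Which software summarised the probes is not given in the sources used here, and the table used holds no detection calls. Each value plus 16.6 (the 20th percentile of all values) was put on the log2 scale. Arrays were quantile normalized, since their medians spread by 85.9%, more than the 10% allowed. The 64 control probe sets and those with a mean below the 40th percentile were left out, leaving 27022. Symbols came from the platform's probe table, with old ones renewed by Entrez number from RefSeq (GRCm38.p6): 34945 probe sets had 1 symbol, 932 several and 9160 none. Promoter sequences are RefSeq's (GRCm38.p6). The tests used limma 3.58.1 under R 4.3.3, lmFit followed by eBayes with trend, two-sided, and p-values were adjusted by Benjamini-Hochberg with a threshold of 0.05. Every difference is rotated minus static in log2 units, and understates the change of dim probe sets.

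Same-numbered samples deviated together (correlations of deviations 0.196, 0.313 and 0.334 across probe sets). The labels do not say what the numbers stand for, so the main fit left the samples unpaired. Every SE and p is from that fit unless another setting is named. Genes named with all values were the actins, Tagln, Cnn1, Srf, in each direction the 6 of smallest p, and those whose probe sets differ by over 1; of other pathway lists, up to 3 in each direction. The results of some pathway genes are not reported here. Other probe sets of these genes, and those of Cnn3 and Pdlim7, were chosen after their values were seen. The members and lists were chosen with earlier results of these data known. The fit was repeated on the deposited scale, with median centring, with other offsets and filters, without the trend, with robust eBayes, with array weights, with the replicate number as a block, on gene means over probe sets, and without each sample. Leaving out static 1 and rotated 1 together was added after the data were seen. In simulations of 27022 probe sets with 200 changed, the fit found 1.9% at a 2-fold change and 34.6% at a 4-fold change, and made 1.65 false calls per run. Their noise was independent for each probe set and array, without the shared deviations given above, so these rates may not hold for the data.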

Additional observations from a re-analysis of the deposited data

How the results depend on the processing

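The number of arrays limits the precision, and dim probe sets are understated by the offset. No member probe set passed the adjusted threshold under any of the 18 alternatives; over all probe sets 22 passed with array weights and 2 with the replicate block. Without the block, 4 member genes stood lower and 2 higher at an unadjusted p under 0.05; the replicate block gave 7 and 4, and it changed no call at the adjusted threshold among the members. Over member probe sets the block gave 13 lower, and over the other pathway genes 15 lower and 4 higher. Median centring gave 1 lower member gene, 1 lower member probe set and 1 lower pathway gene, and a median member difference of 0.12. With array weights that median was 0.023, and 11 member probe sets stood lower and 4 pathway genes higher. Array weights called 19.02% of all probe sets in either direction, against 8.24% in the main fit. No intensity trend left 2 pathway genes lower, and the mean over probe sets gave 9 pathway genes lower and 1 higher. With that mean, which gives 1 value per gene, 2 member genes stood higher, the same number of genes as in the main fit. Without the trend 7.55% of all probe sets were called in either direction, and with the mean 8.28% of all genes. Leaving out each sample in turn gave 0 to 8 lower and 1 to 2 higher member genes (0 lower without static 2, 8 without rotated 2), 2 to 11 lower and 2 to 4 higher member probe sets, 2 to 7 lower and 0 to 2 higher pathway genes, and medians from -0.19 to -0.01. Of all probe sets, the fits without 1 sample called from 4.04% (without rotated 1) to 12.4% (without rotated 3) in either direction. Without static 1 and rotated 1 together, 2 member probe sets and 1 member gene stood higher.

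The genes chosen by the naming rule, a few of them not reported here, kept their direction in 654 of 681 gene and setting pairs. With the values as deposited the signs turned for Actb (0.018), Actg1 (0.074) and Cnn1 (-0.048), with median centring for Actb (0.15) and Actg1 (0.21), and with array weights for Tagln (0.034). With the mean over probe sets they turned for Srf (-0.075), Myh9 (-0.090), Cfl1 (-0.30), Ssh1 (-0.11), Limk1 (-0.066), Arpc2 (-0.37) and Cttn (-0.18). Without static 1 and rotated 1 they turned for Cnn1 (-0.018), Synpo2 (-0.026), Tpm3 (-0.019) and Limk1 (-0.13). Leaving out 1 sample, Cnn1 ranged from -0.26 to 0.72, Srf from -0.12 to 0.38, Capg from -0.041 to 0.53, Tpm3 from -0.047 to 0.072, Synpo2 from 0.15 to 0.998 and Limk1 from -0.04 to 0.53. Actc1, Cnn1 and Synpo2 have no value under the stricter filter. The cause of these changes was not tested.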
